A study of Rattus norvegicus with 12 samples.

Results

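The major histocompatibility complex (MHC), antigen presentation and interferon response genes of rat liver were taken from the deposited table by name. Included were all genes starting with RT1- (the rat MHC), Ifi followed by a digit or t, Irf, Gbp, Mx or Stat followed by a digit, Oas and Isg, together with B2m, Cd74, Tap1, Tap2 and Tapbp. Of 135 listed transcripts under 91 such names, 81 genes had an RPKM (reads scaled to transcript length and to all mapped reads) above 0 in at least 1 liver, out of 15270 genes above 0 in the whole table. They were divided into 34 MHC and antigen presentation genes and 47 interferon genes, each represented by its transcript with the highest mean RPKM. The least abundant genes that entered were Oas1f and RT1-T18, with mean RPKM values of 0.0117 and 0.00910. A further 10 names were at 0 in all 12 livers, namely Ifi203, Ifitm7, Oas1d, Oas1e, RT1-M1-4, RT1-M10-1, RT1-M4, RT1-M5, RT1-M6-1 and RT1-O1.

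The 12 animals were female inbred alcohol-preferring iP10a rats. For 23 weeks, 6 EtOH animals chose freely between water and bottles of 10, 20 and 30% ethanol (v/v), and 6 control animals had water without ethanol. Livers were collected at 38 weeks of age, except that of EtOH replicate 6, collected at 39 weeks, and poly(A) RNA from each was sequenced as 1 library. Between 2610238 and 4318141 reads per control liver and between 3945593 and 6030028 per EtOH liver could be recovered from the RPKM values, so that the EtOH libraries were on the whole deeper. All read counts given here are the smallest that fit these values. A single inbred strain was used, the ethanol dose was set by each animal, and whole liver was sampled.

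Class I MHC molecules, made of a heavy chain and beta-2 microglobulin, present peptides from inside the cell and are made by nearly all cells. Class II molecules, made of an alpha and a beta chain that assemble on the invariant chain Cd74, present peptides taken up from outside and are made mainly by macrophages, dendritic cells and B cells, which in the liver include the resident macrophages, the Kupffer cells. Interferons act through JAK kinases, STAT and IRF factors to raise class I genes and antiviral genes, and interferon gamma also raises class II genes through the coactivator Ciita, which acts with NF-Y and RFX factors bound at the class II promoters.

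Promoters are shown for the 5 genes that passed the test between EtOH and control animals (adjusted p below 0.05), to set the letters that class II and interferon gene promoters carry beside their levels. The windows run from 250 bases before to 50 bases after the annotated start in RefSeq (build GRCr8), written 5′ to 3′ on the strand of the gene. Cd74, the invariant chain, is at chr18:56526956-56527255 on the plus strand. RT1-Da, an alpha chain of the DR type, is at chr20:4515165-4515464 and RT1-Ba, an alpha chain of the DQ type, at chr20:4576807-4577106, both on the plus strand. Capitals in these 3 mark the letters ATTGG on either strand, the core of the Y box that NF-Y binds in class II promoters.
Cd74: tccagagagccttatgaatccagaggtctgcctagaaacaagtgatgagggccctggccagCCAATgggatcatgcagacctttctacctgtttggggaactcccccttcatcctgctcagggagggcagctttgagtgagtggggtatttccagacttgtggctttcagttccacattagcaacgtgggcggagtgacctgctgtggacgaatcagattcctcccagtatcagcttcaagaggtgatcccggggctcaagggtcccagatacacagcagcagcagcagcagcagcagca
RT1-Da: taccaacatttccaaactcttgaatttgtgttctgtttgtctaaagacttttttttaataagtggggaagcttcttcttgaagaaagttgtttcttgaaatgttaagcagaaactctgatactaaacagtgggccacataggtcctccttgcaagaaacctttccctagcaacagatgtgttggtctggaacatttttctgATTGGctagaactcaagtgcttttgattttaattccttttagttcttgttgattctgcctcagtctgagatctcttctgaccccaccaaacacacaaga
RT1-Ba: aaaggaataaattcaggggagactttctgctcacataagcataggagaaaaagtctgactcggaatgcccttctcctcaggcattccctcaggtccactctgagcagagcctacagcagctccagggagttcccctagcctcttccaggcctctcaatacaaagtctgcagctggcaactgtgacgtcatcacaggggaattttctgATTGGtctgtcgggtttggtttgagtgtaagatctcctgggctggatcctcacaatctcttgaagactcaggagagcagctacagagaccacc
RT1-S3, a nonclassical class I heavy chain, is at chr20:2675278-2675577 on the plus strand, and Ifitm3, a membrane protein that hinders the entry of viruses, is at chr1:205541709-205542008 on the minus strand. Capitals in these 2 mark the letters GAAANNGAA, the core of the interferon-stimulated response element, on either strand.
RT1-S3: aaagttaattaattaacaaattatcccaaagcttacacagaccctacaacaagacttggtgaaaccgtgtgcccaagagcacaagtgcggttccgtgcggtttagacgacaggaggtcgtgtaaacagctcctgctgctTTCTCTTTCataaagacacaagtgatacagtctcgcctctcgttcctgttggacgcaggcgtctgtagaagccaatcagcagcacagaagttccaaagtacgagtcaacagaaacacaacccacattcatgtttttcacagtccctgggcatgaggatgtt
Ifitm3: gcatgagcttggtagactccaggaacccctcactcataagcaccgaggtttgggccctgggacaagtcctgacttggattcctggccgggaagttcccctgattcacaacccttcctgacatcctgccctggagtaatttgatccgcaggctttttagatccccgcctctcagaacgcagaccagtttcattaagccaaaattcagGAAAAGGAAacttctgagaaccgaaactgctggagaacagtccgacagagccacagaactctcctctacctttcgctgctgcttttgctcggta

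A promoter was found for 67 of the 81 genes, matched by symbol, and each was searched on both strands. The letters ATTGG were present in 10 of 10 class II promoters, compared with 37.5% of 33469 rat promoters of the same length, 10 of 17 class I promoters and 13 of 36 interferon gene promoters. The first base of the motif was at position -49 relative to the start in RT1-Da, at -43 in RT1-Ba and at -189 in Cd74. The letters GAAANNGAA were present in 0 of 10 class II promoters, but in 4 of 4 promoters of B2m, Tap1, Tap2 and Tapbp, in 3 of 17 class I promoters and in 13 of 36 interferon gene promoters, compared with 9.71% of all promoters. The gamma-activated site TTCNNNGAA, at which STAT dimers bind, was present in 8 of 36 interferon gene promoters, 1 of 31 MHC promoters and 8.87% of all promoters. In Ifitm3 a GAAANNGAA match at -44 was followed by a TTCNNNGAA match at -33. These matches describe the letters in the window and not occupancy, and the paralogous RT1 promoters are not independent of each other.

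EtOH and control livers were compared with limma on quantile-normalized log2 (RPKM + 0.5) over 21718 transcripts, of which 526 (2.42%) were called at a Benjamini-Hochberg adjusted p below 0.05, 245 of them (1.13%) higher and 281 (1.29%) lower in EtOH animals. Of the 81 genes, 5 were called, all higher in EtOH animals. Of these, 4 were among the 34 MHC genes (Cd74, RT1-Da, RT1-Ba and RT1-S3) and 1 was among the 47 interferon genes (Ifitm3), a share near the background. Where the mean RPKM was 1 or more, 4.47% of transcripts were called, and 61 of the 81 genes, 24 of them MHC genes, reached that level. At an unadjusted p below 0.05 the limma fit had 24 of the 81 genes, 18 higher and 6 lower, compared with 3364 of all 21718 transcripts, 1753 higher and 1611 lower. The 2 sets differ in abundance, as 11086 of the 21718 transcripts had a mean RPKM of at least 1. The direction of small changes depends on the scaling, because the median log2 difference over transcripts was -0.08 before quantile normalization and 0.0078 after it. Without normalization between livers 774 transcripts were called, 126 of them higher, and with median scaling 531, 194 of them higher. The 34 MHC genes then gave 3 and 4 calls, all higher, but the 47 interferon genes gave 1 call lower (Ifit2) and 0 calls.

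**Figure D1:**
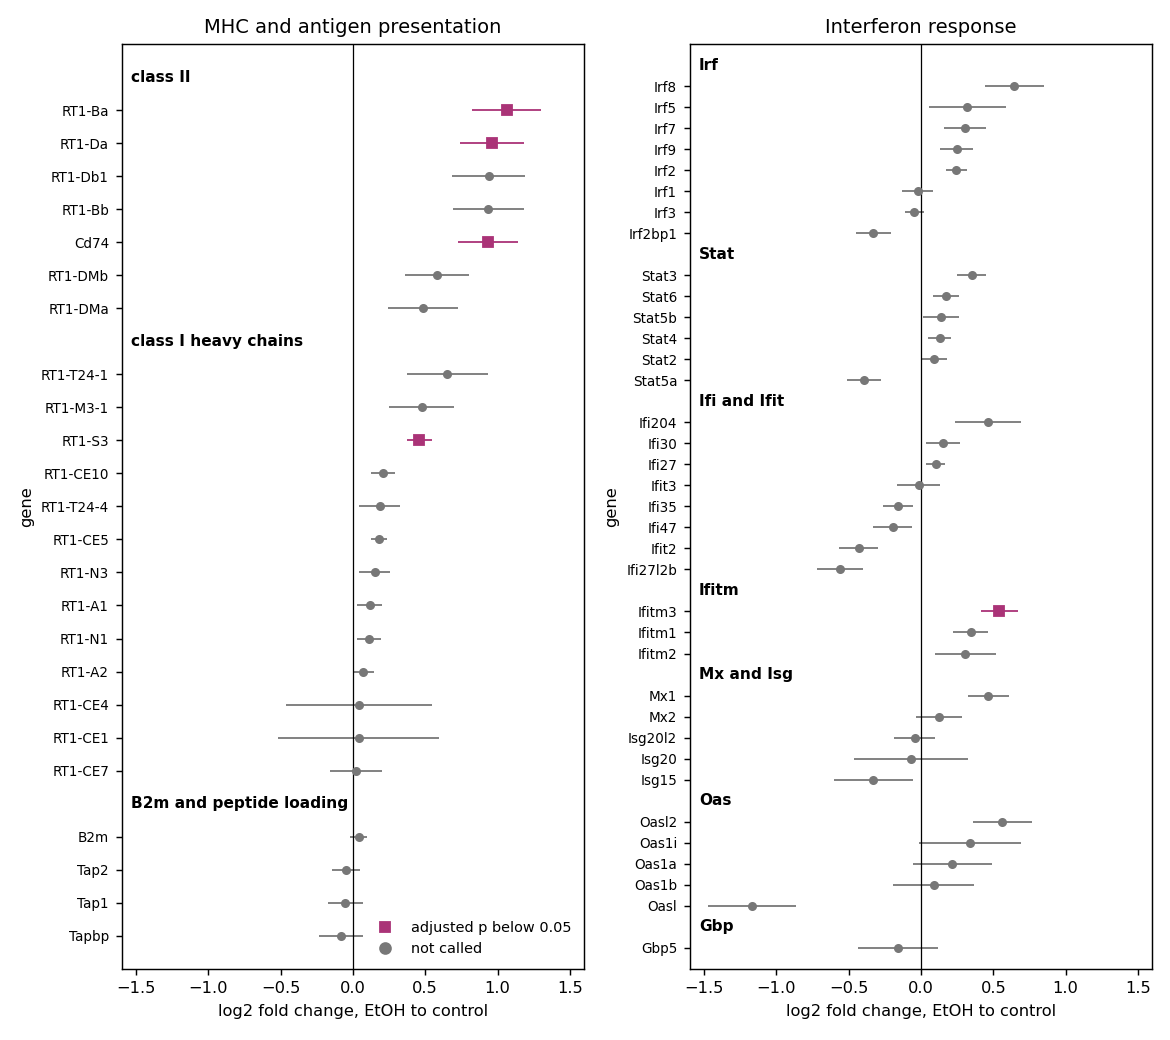
Log2 fold change between EtOH and control animals (limma, quantile-normalized, horizontal axis) with its standard error for the genes with a mean RPKM of at least 1, except 1 that is not reported, grouped by role (vertical axis), with MHC genes on the left and interferon genes on the right. The 7 class II genes lie at 0.48 to 1.06 and B2m and peptide loading genes near 0, while interferon genes range from -1.17 (Oasl) to 0.65 (Irf8).

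Of the 11 class II genes 3 were called, all higher in EtOH livers, by 1.70-fold to 1.84-fold in mean RPKM. In bulk liver, more cells of a type and more RNA per cell cannot be told apart. Cd74 had RPKM values of 30.1, 40.1 and 58.4 (lowest, median and highest) in control livers and 47.6, 73.0 and 93.9 in EtOH livers. The means were 43.4 ± 11.4 and 73.9 ± 16.3 (SD, n = 6 each), a log2 fold change of 0.93 ± 0.21 (SE, limma adjusted p = 0.036). All but EtOH replicate 6 lay above the highest control liver. RT1-Da ranged from 22.6 to 43.1 around a median of 26.0 in controls and from 33.3 to 67.8 around 54.2 in EtOH animals, with a log2 fold change of 0.96 ± 0.22 (limma adjusted p = 0.044). RT1-Ba ranged from 17.2 to 36.8 around 22.4 in controls and from 28.9 to 57.8 around 47.5 in EtOH animals, with a log2 fold change of 1.06 ± 0.24 (limma adjusted p = 0.038). In both genes, as in Cd74, the groups overlapped through EtOH replicate 6 alone. A second Cd74 transcript, with means of 25.8 in controls and 47.6 in EtOH animals, was also called higher (log2 fold change 1.01 ± 0.20, limma adjusted p = 0.024).

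The partner beta chains had log2 differences of like size but were not called. RT1-Bb, the chain that pairs with RT1-Ba, had means of 8.57 ± 2.93 in control and 14.9 ± 3.61 in EtOH livers, with a log2 difference of 0.94 ± 0.25 (limma adjusted p = 0.072). RT1-Db1, a partner of RT1-Da, had means of 8.33 ± 3.20 and 14.4 ± 3.17, with a log2 difference of 0.94 ± 0.25 (limma adjusted p = 0.077). These genes were counted with fewer reads, RT1-Db1 with 225 in all controls together compared with 1170 for Cd74. The part of read depth in the missing calls was not tested. A further RT1-Db1 transcript gave 4.54 and 8.96, with a log2 difference of 0.96 and an adjusted p of 0.075 by limma. Of the chains that load peptides onto class II, RT1-DMb had log2 difference 0.58 ± 0.22 (limma adjusted p = 0.22) and RT1-DMa 0.48 ± 0.24 (limma adjusted p = 0.38). RT1-DOa and RT1-DOb, which restrain that loading, and RT1-Db2 and RT1-Ha had mean RPKM values between 0.137 and 0.354, with at most 21 recovered reads each over all livers, and none was called. Over the 11 class II genes the median log2 difference was 0.58, and over the 7 with a mean RPKM of at least 1 it was 0.94, compared with 0.00019 over all transcripts tested and 0.0078 over those whose mean RPKM was 1 or more.

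**Figure D2:**
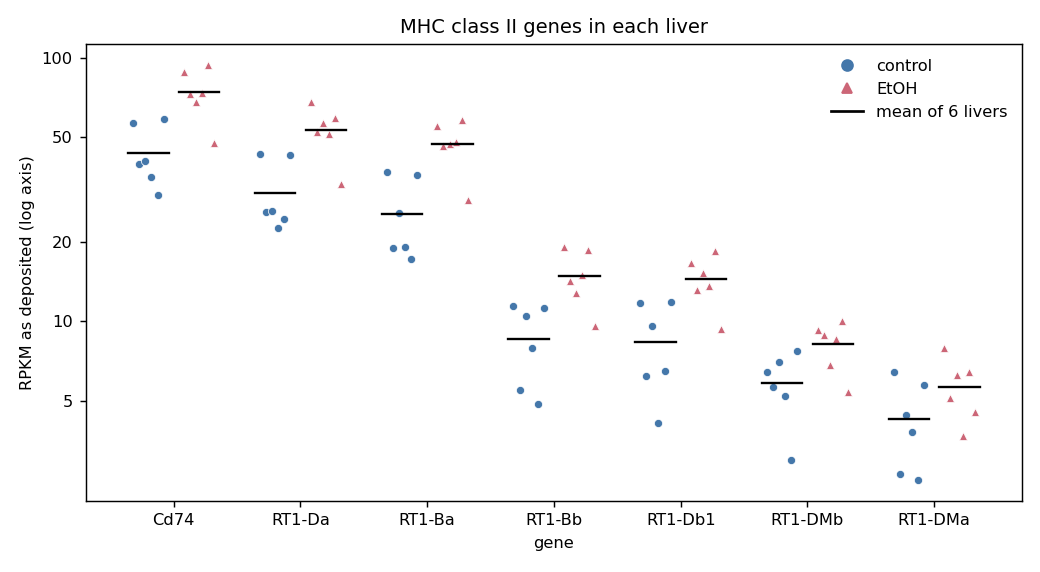
RPKM as deposited (log axis) of 7 class II genes (horizontal axis) in 6 control livers (circles) and 6 EtOH livers (triangles), drawn from replicate 1 to 6 from left to right in each group, with a bar at the group mean. In Cd74, RT1-Da, RT1-Ba, RT1-Bb and RT1-Db1, 5 of 6 EtOH livers lie above all control livers, and the exception is EtOH replicate 6.

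The 5 class II genes with the highest mean RPKM, each by its most abundant transcript, varied together from liver to liver within each group. The second RT1-Db1 transcript differed, with its lowest control value in control replicate 6 (3.07). RT1-DMa had its lowest EtOH value in EtOH replicate 4 (3.67). Of the 5 genes Cd74, RT1-Da, RT1-Ba, RT1-Bb and RT1-Db1, each had its highest control value in control replicate 1 or 6, its lowest in control replicate 4 or 5, its highest EtOH value in EtOH replicate 1 or 5 and its lowest EtOH value in EtOH replicate 6. Their summed RPKM was 83.1 to 160 in control livers (mean 117 ± 34.6) and 129 to 248 in EtOH livers (mean 204 ± 43.5), 1.75-fold higher in the EtOH mean. EtOH replicate 6, collected at 39 weeks of age, was at 129, below control replicates 1 and 6 at 159 and 160. The part of age in this was not tested.

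The class II calls were lost when any 1 of 9 livers was left out, which moved the count of MHC calls from 4 to 1 or 2. Cd74, RT1-Da and RT1-Ba kept their direction but had limma adjusted p values of 0.066 to 0.093 without control replicate 2, 3, 4 or 5 or EtOH replicate 1, 2, 3, 4 or 5, and their log2 fold changes stayed between 0.84 and 1.07 in Cd74, 0.88 and 1.11 in RT1-Da and 0.96 and 1.21 in RT1-Ba over all 12 omissions. They were also not called by limma without a mean-variance trend (adjusted p = 0.053 to 0.060) or with a replicate block (adjusted p = 0.13 to 0.14). Nor were they called by the pooled error term on square-root values (adjusted p = 0.069 to 0.081), which is the kind of test that the study describes. Without normalization between livers all 3 were called. Their log2 fold changes were then lower, at 0.77 in Cd74, 0.80 in RT1-Da and 0.90 in RT1-Ba. All 3 were also called without control replicate 1 or 6 or EtOH replicate 6. RT1-Bb was also called without control replicate 6 or EtOH replicate 6, and RT1-Db1 without control replicate 6.

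Of the 19 class I heavy chain genes 1 was called. RT1-S3 was called higher in EtOH livers, at 99.96, 113 and 150 (lowest, median and highest) compared with 90.6, 96.8 and 101 in controls, with a log2 fold change of 0.46 ± 0.085 (limma adjusted p = 0.019). Of the EtOH livers 5 lay above the highest control, and the spread was wider among EtOH animals (SD 21.3) than among controls (SD 4.13). The call held with each liver left out in turn, but not without normalization between livers (log2 fold change 0.31, limma adjusted p = 0.11). RT1-A2, a classical class I heavy chain, had means of 97.1 ± 15.2 and 92.3 ± 10.1 and a log2 difference of 0.07 ± 0.073 (limma adjusted p = 0.66), with groups that overlapped broadly. RT1-CE5, of the class I region C/E, had 34.8 and 35.1 (log2 difference 0.18 ± 0.05, limma adjusted p = 0.11), and was called higher only when control replicate 3 was left out. Of the 19 class I heavy chain genes 13 had a mean RPKM of at least 1, and all 13 had a log2 difference above 0 (0.02 to 0.65, median 0.15) after quantile normalization, but 6 were above and 7 below 0 without it. The class I genes are near-identical copies in part, so that reads may have been divided among them in a way that the RPKM values do not show, and strand-specific counting is not stated.

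Neither the class I light chain nor the peptide loading genes passed the test. B2m, the most abundant of all 81 genes, had RPKM values of 1455, 1568 and 1630 in control livers and 1298, 1523 and 1618 in EtOH livers, with a log2 difference of 0.04 ± 0.06 (limma adjusted p = 0.79). Tap1 and Tap2, which carry peptides into the endoplasmic reticulum, each had a log2 difference of -0.05 (limma adjusted p = 0.86 and 0.83), and Tapbp, which holds the transporter to class I, had -0.08 (limma adjusted p = 0.82). The differences of all 4 genes were under their standard errors. The mean RPKM as deposited was lower in EtOH livers in each of them, and the log2 difference of B2m was below 0 without normalization between livers (-0.06) and with voom on recovered reads.

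Summed levels of class II were set beside those of class I and of macrophage markers. Class II (11 genes) summed to RPKM values of 89.7 to 175 in control and 139 to 265 in EtOH livers, and the mean was 1.71-fold higher in EtOH animals. Class I heavy chains (19 genes) summed to means of 329 and 348. Markers of Kupffer cells and macrophages (10 genes, none at 0 in any liver) summed to 204 to 324 in controls and 275 to 336 in EtOH animals, with means of 257 ± 41.7 and 303 ± 21.7, 1.18-fold higher in EtOH animals. A summed RPKM is weighted toward the most abundant genes. All 10 markers had a log2 difference above 0, with a median of 0.38, and 7 were at an unadjusted p below 0.05 by limma. Of the 10, 3 were called higher, Vsig4 (0.46, limma adjusted p = 0.0034), Clec4f (0.48, limma adjusted p = 0.025) and Cd163 (0.66, limma adjusted p = 0.043). Where the mean RPKM was 1 or more, as in all 10, the share called in the whole table was 4.47%. In Vsig4 the groups did not overlap. The largest difference was that of Csf1r (1.03 ± 0.51, limma adjusted p = 0.38), whose transcripts 1 and 2 had -0.32 and 0.32. The 5 class II genes summed to 0.347 to 0.643 of the Kupffer cell markers in controls (mean 0.456 ± 0.125) and 0.437 to 0.776 in EtOH animals (mean 0.671 ± 0.121).

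Other cells that make class II had low marker levels. The 6 dendritic cell markers summed to RPKM values of 2.46 to 3.62 in controls and 2.52 to 5.42 in EtOH animals, and 5 of them had a mean RPKM under 1. By limma 0 of 6 were called, and 1, lower in EtOH animals, was at an unadjusted p below 0.05. Itgax had means of 0.259 and 0.158 in its more abundant transcript, but 0.0995 and 0.196 in another. The 6 B cell markers summed to 1.18 to 2.56 and 2.11 to 3.91, and Cd79a, a part of the B cell receptor, was called higher by limma (adjusted p = 0.039) on 0 reads in all 6 controls and 9 reads over 5 of 6 EtOH livers. Ms4a1, another B cell marker, had 0 reads in controls and 6 in EtOH animals. The means of these sums were 3.08 and 3.83 for dendritic cell markers and 1.96 and 2.95 for B cell markers. Summed markers of endothelial and stellate cells had higher means in EtOH animals as well. The 4 endothelial markers summed to 27.7 to 35.2 in controls and 32.7 to 45.5 in EtOH animals, 1.21-fold higher in the mean, and all 4 had a log2 difference above 0 (median 0.41), 3 of them at an unadjusted p below 0.05 and 1 called (Cdh5, log2 fold change 0.46, limma adjusted p = 0.049). The 5 stellate cell markers summed to 6.30 to 11.8 and 10.3 to 21.9, 1.54-fold higher in the mean, all 5 with a log2 difference above 0 (median 0.34). Of the hepatocyte markers, 1 of 6 (Cps1, log2 fold change 0.58, limma adjusted p = 0.022) was called higher, and their levels were those of liver, Alb alone reaching a mean RPKM of 70352 in controls. Where the mean RPKM was 1 or more, as in all 4 endothelial and all 6 hepatocyte markers, 4.47% of transcripts were called. The 8 T cell, 6 NK cell, 2 neutrophil and 5 stellate cell markers gave 0 calls by limma, with 2 of the stellate cell markers at an unadjusted p below 0.05 and 0 of the others. The part of these cells in the class II difference was not tested.

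**Figure D3:**
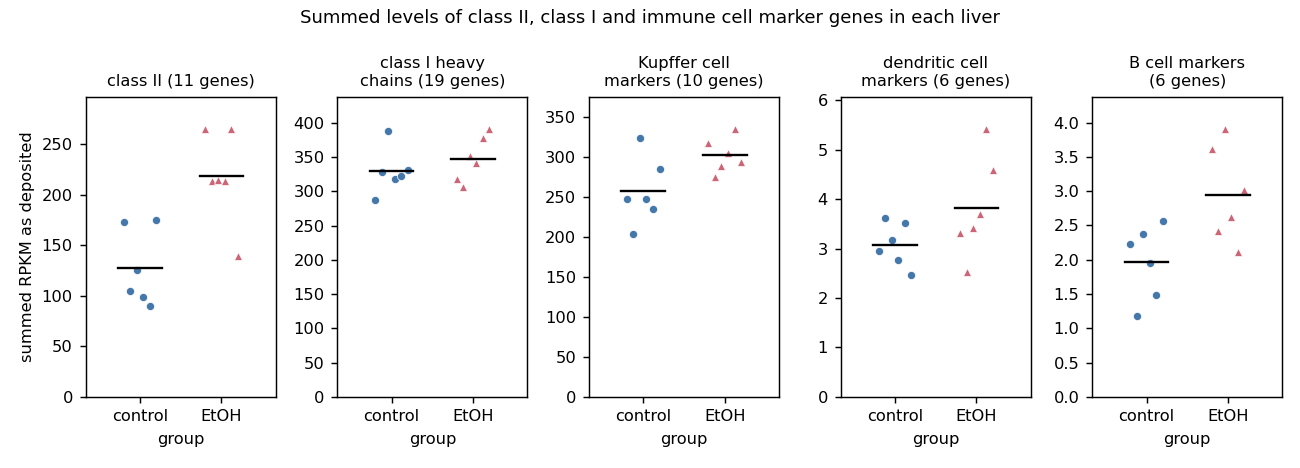
Summed RPKM as deposited (vertical axes, each starting at 0) of class II genes, class I heavy chains and markers of Kupffer cells, dendritic cells and B cells in 6 control livers (circles) and 6 EtOH livers (triangles), with a bar at the group mean. The mean of class II was 1.71-fold higher in EtOH animals, and that of the Kupffer cell markers 1.18-fold higher.

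Interferon genes had differences in both directions, and 46 of the 47 were not called. Of the 37 with a mean RPKM of at least 1, 23 had a log2 difference above 0 and 14 below (median 0.13), but 17 and 20 without normalization between livers. Ifitm3 was the gene called, at 46.1, 57.2 and 66.7 (lowest, median and highest RPKM) in control and 63.1, 68.5 and 95.9 in EtOH livers, with a log2 fold change of 0.54 ± 0.13 (limma adjusted p = 0.049). EtOH replicates 3 and 5 were highest and 4 of 6 EtOH livers lay above all controls. This call was lost, with limma adjusted p values up to 0.099, when any 1 liver other than control replicate 6 was left out, and at 0.079 with median scaling and 0.11 without normalization between livers. Its relatives Ifitm1 and Ifitm2, which also act against virus entry, had log2 differences of 0.34 ± 0.12 and 0.31 ± 0.21 (limma adjusted p = 0.17 and 0.55), and Ifitm1 was called without control replicate 6 (limma adjusted p = 0.041).

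Groups did not overlap in 2 of the 81 genes, both lower in EtOH livers, compared with 674 transcripts (3.1%) of the whole table, and neither was called. Of the 674 transcripts, 527 were lower and 147 higher in EtOH livers. Overlap was judged on RPKM as deposited, without normalization between livers, and the part of scaling in this imbalance was not tested. Ifi27l2b, of the Ifi27 family of small interferon-induced proteins, had 405, 464 and 785 in controls and 310, 337 and 379 in EtOH animals, with a log2 difference of -0.56 ± 0.16 (limma adjusted p = 0.093). Control replicates 2 and 3 were at 783 and 785, and the 4 other controls between 405 and 486. Its neighbour Ifi27 had a mean of 354 in both groups. Stat5a, a STAT factor that acts downstream of growth hormone and cytokine receptors, had 3.41, 3.81 and 4.59 in controls and 2.27, 2.77 and 3.31 in EtOH animals, with a log2 difference of -0.39 ± 0.12 (limma adjusted p = 0.11).

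Other interferon genes with low p values were likewise divided. Oasl, an OAS-like protein of the RNA response, had 1.74, 4.94 and 6.74 in controls and 0.963, 1.41 and 1.96 in EtOH animals, with a log2 difference of -1.17 ± 0.31 (limma adjusted p = 0.070). Control replicates 1 and 6 lay with the EtOH livers, and the 4 other controls at 4.10 to 6.74. Oasl was called only where the test was limited to transcripts whose mean RPKM reached 0.1 or 1 (lowest limma adjusted p = 0.029) or without control replicate 1 or 6. Its paralog Oasl2 had the opposite direction, with means of 1.11 ± 0.352 and 1.90 ± 0.504 and a log2 difference of 0.56 ± 0.20 (limma adjusted p = 0.19). Ifit2, which binds foreign RNA with its family, had means of 8.87 ± 1.52 and 5.98 ± 0.936 (log2 difference -0.43 ± 0.13, limma adjusted p = 0.12), and was called lower without normalization between livers or without control replicate 3 (limma adjusted p = 0.035).

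Mx1, a dynamin-like antiviral GTPase, had 1.47, 1.90 and 2.15 in controls and 1.79, 2.80 and 3.21 in EtOH animals (log2 difference 0.47 ± 0.14, limma adjusted p = 0.12), and 5 of 6 EtOH livers lay above all controls. Mx2 had means of 15.6 and 15.4 (log2 difference 0.12). Isg15, a ubiquitin-like modifier that is among the most strongly interferon-induced genes, had means of 14.0 and 9.91 (log2 difference -0.33 ± 0.27, limma adjusted p = 0.65) with broad overlap. Oas1a, which makes the signal that activates RNase L, had 1.69 and 2.17 (log2 difference 0.22, limma adjusted p = 0.72). The guanylate-binding proteins, GTPases induced by interferon gamma, were at mean RPKM values of 1.21 (Gbp5), 0.448 (Gbp4) and 0.0419 (Gbp1), none of them called, with 0 of 3 at an unadjusted p below 0.05 by limma. Ifi47, an interferon gamma-induced GTPase, had means of 65.9 and 51.1 (log2 difference -0.20, limma adjusted p = 0.55).

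**Figure D4:**
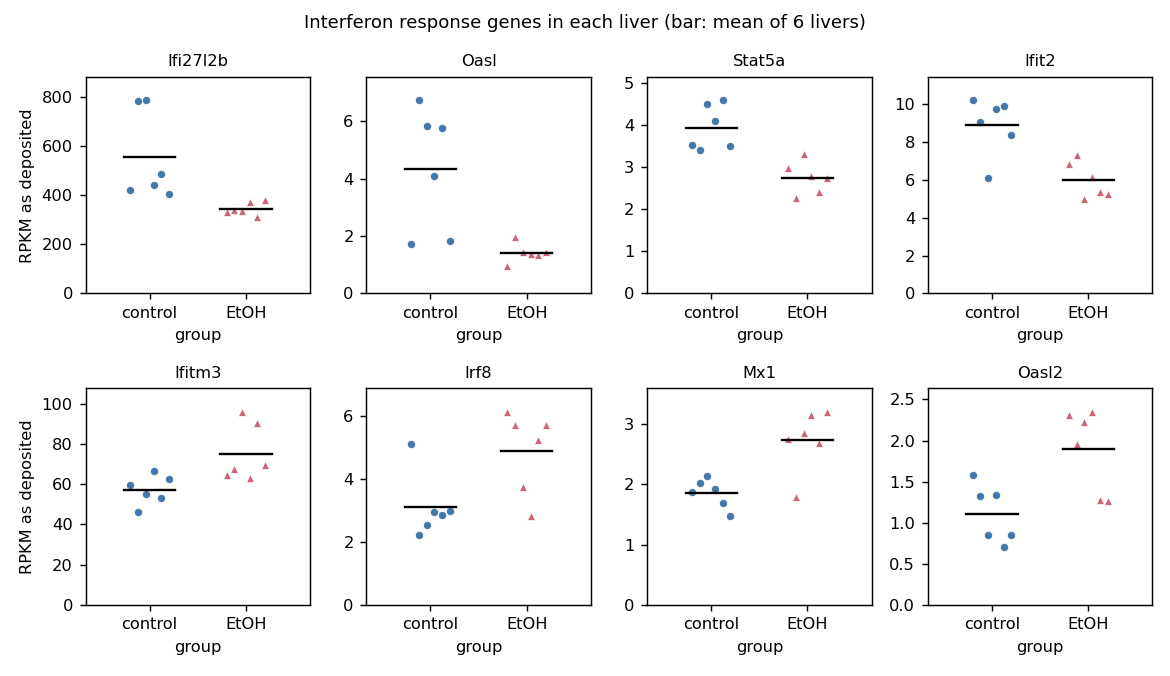
RPKM as deposited (vertical axes, each starting at 0) of 8 interferon response genes in 6 control livers (circles) and 6 EtOH livers (triangles), with a bar at the group mean. EtOH livers lie below all controls in Ifi27l2b and Stat5a, and in the other 6 genes the groups overlap.

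Of the factors of the response, 0 of 10 Irf and 0 of 6 Stat genes were called by limma, with 4 and 2 at an unadjusted p below 0.05. By the same fit 3364 of all 21718 transcripts were below that p. Irf8, a factor of myeloid cells, had 2.21, 2.91 and 5.12 in controls and 2.81, 5.47 and 6.15 in EtOH animals (log2 difference 0.65 ± 0.20, limma adjusted p = 0.13), and control replicate 1 stood apart from the other controls, which were all below 3. Irf2, which represses interferon genes, had means of 8.85 and 9.79 (log2 difference 0.24, limma adjusted p = 0.11). Irf1 and Irf3, activators of interferon and class I genes, had log2 differences of -0.02 and -0.05 (limma adjusted p = 0.94 and 0.77). Stat3, which carries the interleukin-6 signal to acute phase genes, had means of 28.7 and 32.9 (log2 difference 0.35 ± 0.10, limma adjusted p = 0.097). Stat2, the partner of Irf9 in the type I interferon response, had log2 difference 0.09 and Stat4 0.13 (limma adjusted p = 0.65 and 0.49). The rule by name also took in Irf2bp1, a binding partner of Irf2, and Isg20l2, a nuclease that is no interferon-stimulated gene, with log2 differences of -0.33 and -0.05.

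Of 85 further pathway genes 67 were found under their names and 3 were called, all higher in EtOH animals, a share near the 4.47% of transcripts whose mean RPKM was 1 or more. Slfn3, a Schlafen family gene, had means of 6.57 ± 1.16 and 10.6 ± 1.65 (log2 fold change 0.76 ± 0.12, limma adjusted p = 0.0067), and this call held with each liver left out and under all 11 other alternatives. Ctsb, the lysosomal protease cathepsin B, had means of 259 ± 15.4 and 280 ± 19.2 (log2 fold change 0.20 ± 0.034, limma adjusted p = 0.013), with overlapping groups, and was not called without normalization between livers (limma adjusted p = 0.35), without a trend (0.063) or with a replicate block (0.094). Of the 9 genes that supply peptides to class I 0 were called by limma, 3 with an unadjusted p below 0.05. Among them Psme1, a proteasome activator, had a lower RPKM as deposited in all EtOH livers (132 to 151) than in any control (155 to 209). Its log2 difference was -0.17 (limma adjusted p = 0.13), and without normalization between livers it was called lower. The 6 interferon receptors and kinases (smallest p Jak1, log2 difference 0.25), 7 brakes of the response and 8 RNA and DNA sensors (smallest p Tlr3, means of 7.59 and 10.3, limma adjusted p = 0.069) gave 0 calls by limma, with 3, 1 and 1 at an unadjusted p below 0.05. The brake Ptpn6 had log2 difference 0.21 (limma adjusted p = 0.54). Of 26 other interferon-induced genes, Slfn3 was the one called.

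Nfya, the subunit of NF-Y that contacts the Y box, was listed with 2 transcripts that moved in opposite directions. Transcript 1 was called higher (mean RPKM 0.428 in controls and 2.24 in EtOH animals, log2 fold change 1.77 ± 0.42, limma adjusted p = 0.0496) and transcript 2 lower (1.84 and 0.241, log2 fold change -1.77 ± 0.30, limma adjusted p = 0.013). Transcript 1 was at 0 in control replicates 1, 3, 4 and 5, and transcript 2 was at 0 in EtOH replicates 2, 3, 4 and 6. The sum of both was 2.27 ± 0.216 in controls and 2.48 ± 0.554 in EtOH animals. The 2 transcripts were listed at the same start and end, and had 15 and 57 reads in controls and 95 and 10 in EtOH animals. Without 1 of 10 livers in turn, the call of transcript 1 was lost (limma adjusted p up to 0.10), and it held without control replicate 2 or 6. Ciita, the coactivator of class II genes, was at mean RPKM values of 0.280 and 0.363 (limma adjusted p = 0.89), Rfx5, which binds the X box beside the Y box, at 2.53 and 2.69 (limma adjusted p = 0.73), and Nfyb and Nfyc had log2 differences of 0.03 and 0.18.

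**Figure D5:**
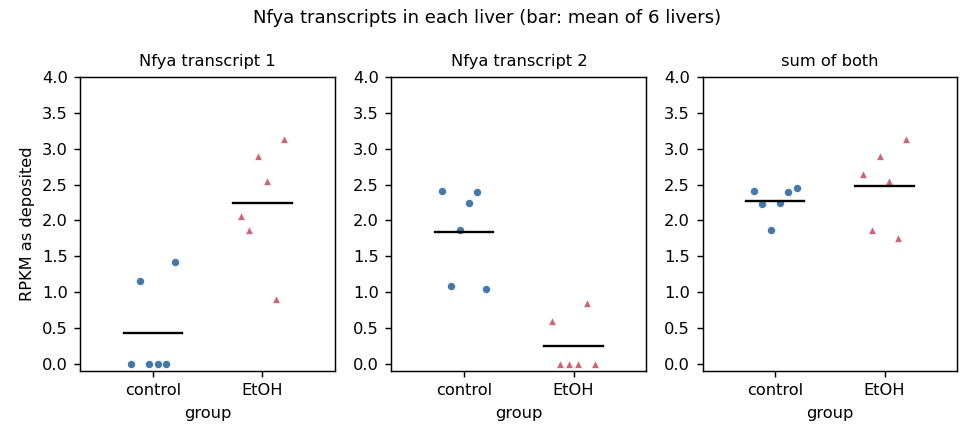
RPKM as deposited (vertical axis) of both Nfya transcripts and of their sum in 6 control livers (circles) and 6 EtOH livers (triangles), with a bar at the group mean. Transcript 1 is at 0 in 4 controls and transcript 2 at 0 in 4 EtOH livers, while the sum has means of 2.27 and 2.48.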

How the data were processed

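Per the labels and the methods of the study, poly(A) RNA from 12 livers was sequenced in 101-nt paired-end reads, and the 12 libraries shared a single lane. The authors used CLCbio Genomics Workbench on the reads and deposited 1 RPKM value per transcript and liver. They also deposited their own fold changes, test statistics, p values and FDR values, which were not used here. The build of the table was not given in the sources used here, and its transcript positions are not printed. Promoter coordinates are those of RefSeq on GRCr8.

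Of 34391 transcripts, 21718 were above 0 in at least 1 liver. The log2 values of RPKM plus a pseudocount of 0.5 were quantile normalized and compared between 6 EtOH and 6 control livers with limma 3.58.1 (R 4.3.3) with a mean-variance trend. Adjustment over all 21718 was by Benjamini-Hochberg, and calls were made below an adjusted p of 0.05. Fold changes are on the log2(RPKM + 0.5) scale, which understates those of low genes. Other steps used Python 3.11.15, numpy 2.4.6 and pandas 2.3.3. Whole reads were recovered as the smallest whole numbers that fit the RPKM values of a transcript across livers (each within 0.01 read), 2610238 to 6030028 per liver. They served for depth and for an alternative. A transcript above 0 in 1 liver is thus given 1 read, and all read counts are lower bounds. Groups came from the labels, and each library is 1 animal. The fit was tested on simulated data.

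The members, the pathway and marker lists, and the rule for named genes were chosen with earlier results of these data known. Named are called members, members whose groups do not overlap, in each role group the 3 most abundant members and the 2 with the smallest p, and in each pathway list called genes and the gene with the smallest p. Values of a second transcript of a named gene, other class II genes and class II regulators were added after their values were seen. Correlations of same-numbered animals were -0.067 to 0.032, and only for number 1 above the highest with another number (0.015). The main fit does not pair the numbers. With 1 animal per group and number, these correlations cannot exclude a pairing. Of the genes that the rule names, 1 is not reported here, but it stays in every count. The alternatives were other pseudocounts (0.1 and 1), no normalization or median scaling, square-root values with limma or with a pooled error term, a floor of 0.1 or 1 on mean RPKM, no trend, a replicate block, voom on recovered reads, and leaving out each liver.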

Additional observations from a re-analysis of the deposited data

Results flagged for a closer look

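Single livers that stood apart from the other 5 of their group by Dixon's criterion were seen in 7 of the 84 groups tested (the named genes in each of control and EtOH livers), and chance alone gives about 1 in 20. Among MHC and antigen presentation genes, RT1-CE5 was highest in control replicate 3 at an RPKM of 43.0 (next 35.0), and the protease Ctsb in the same liver at 288 (next 261). Among interferon genes, Irf8 was highest in control replicate 1 at 5.12 (next 2.98), Stat4 in EtOH replicate 6 at 21.5 (next 18.6), and the kinase Jak1 in the same liver at 39.2 (next 36.3). Mx1 was lowest in EtOH replicate 2 at 1.79 (next 2.69). Gbp1 was at 0.137 in control replicate 5, from 1 recovered read, and at 0 in the other controls. Without its outlying liver, Irf8 and Mx1 were still not called by limma.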

How the results depend on the processing

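Under the settings other than leaving out a liver, 4 MHC genes were called throughout, except for 3 without normalization between livers, 5 and 6 with a minimum mean RPKM of 0.1 and 1, 1 with the pooled error term on square-root values, 1 without a trend and 0 with a replicate block. For interferon genes (1 called), counts were 0 with a pseudocount of 1, median scaling, either square-root test, no trend, the replicate block or voom, and 2 and 3 with a minimum mean RPKM of 0.1 and 1. These included Oasl, called lower with either minimum, and Ifi27l2b, called lower with a minimum of 1. For other pathway genes (3 called), counts were 5 with a minimum of 1, 1 without a trend and 1 (Slfn3) with the replicate block. With the replicate block 113 of all transcripts were called, but the numbers share no animal, litter or day that the labels give. A minimum leaves fewer transcripts to adjust over, and the block fewer degrees of freedom. What changed the counts was not tested for any setting.

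Leaving out each liver in turn gave 1 to 6 MHC genes, 0 to 3 interferon genes and 2 to 5 other pathway genes. The highest counts came without control replicate 6, when 656 of all transcripts were called, and the lowest count of all transcripts was 212 without EtOH replicate 2. At the lowest count of MHC genes RT1-S3 was the gene left. No named gene reversed while called. Those of the 81 genes with a mean RPKM under 1 rested on at most 54 recovered reads each over all livers, which limits the precision of their differences.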

Other observations

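Ddx58, the cytosolic RNA sensor RIG-I, was listed with 4 transcripts at the same start and end. In EtOH replicates 3, 4 and 5, transcripts 1, 2 and 4 had RPKM values between 0 and 0.0915 and transcript 3 between 10.9 and 12.3, while in the 9 other livers all 4 had values between 2.46 and 4.72. The sum of the 4 was 14.7 ± 0.741 in controls and 11.8 ± 0.706 in EtOH animals. The mean of the sum was thus lower in EtOH animals, and the sum was not tested. None of the 4 was called by limma, and 3 of them were at an unadjusted p below 0.05. Transcript 3, which had the highest mean RPKM and so stood for the gene among the 8 sensors, went the other way from the sum. Its log2 difference was 0.69 ± 0.41 (limma adjusted p = 0.47). Creb1, a factor of the class II promoter, was listed with 3 transcripts, of which transcript 1 was called higher by limma (mean RPKM 0.0927 and 0.964, log2 fold change 1.20, adjusted p = 0.033) on 2 reads in controls and 26 in EtOH animals, and the sum of the 3 was 3.11 ± 0.780 and 3.69 ± 0.805. How the reads were divided among transcripts of a gene was not tested.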
